A study of Mus musculus with 4 samples.

Results

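Nkx2-1, Otp, Sim1, Rax, Six3, Six6, Lhx5, Foxb1 and Nkx2-4 are 9 transcription factor genes that pattern the hypothalamus and the neighbouring diencephalon. They are 9 of the 23038 genes whose expression was given for each sample. The genes were chosen by name from measured levels of the same 4 samples, after differences in hypothalamic genes between these samples had been seen. Their comparison between control and *Qk* cKO is therefore given as a description, and a call of a member is not evidence about it. The tissue was cortex of E14.5 mouse embryos. The experiment compared 2 control samples, labelled wild type and described in the study as *Qk* fl/fl, with 2 *Qk* cKO littermates that carried *Nestin*-Cre on *Qk* fl/fl. Both groups thus carried the floxed alleles. The *Nestin* promoter drives Cre in neural progenitors, so deletion is not directed at all cells of the tissue. PolyA-selected RNA was sequenced as paired reads, and the level of a gene is given as RPKM, the tags (estimated read counts) of a gene scaled by its exon length and by the total of the sample.

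The hypothalamus and the diencephalon arise from the forebrain below and behind the cortex, and the 9 genes are known as regional regulators there. *Six3*, *Six6* and *Rax* are homeobox genes of the anterior neural plate that act in the eye field and the hypothalamus. *Nkx2-1* is required for the ventral hypothalamus and also for the medial ganglionic eminence of the telencephalon, and *Nkx2-4* is its close paralog. *Otp* and *Sim1* specify neuroendocrine neurons of the paraventricular and supraoptic nuclei, and *Foxb1* marks the mammillary body. *Lhx5*, a LIM homeobox gene, is found in hypothalamus and thalamic borders and also at the medial margin of the telencephalon. Most of these genes are thus not regarded as genes of the dorsal cortex, whereas *Nkx2-1*, *Six3* and *Lhx5* have telencephalic sites of expression close to it.

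The 9 genes do not form a single cluster in the genome. On mm10 (GENCODE M21), *Nkx2-1* lies on chromosome 12 from 56531958 to 56536908 (minus strand) and *Six6* on the same chromosome from 72939892 to 72944899 (plus strand). *Six3* lies on chromosome 17 from 85613608 to 85629302, *Otp* on chromosome 13 from 94875602 to 94885130 and *Sim1* on chromosome 10 from 50894754 to 50989152, all on the plus strand. *Lhx5* lies on chromosome 5 from 120431699 to 120441223 (plus strand), *Foxb1* on chromosome 9 from 69757710 to 69760940 (minus strand) and *Nkx2-4* on chromosome 2 from 147083316 to 147085445 (minus strand).

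Promoter sequence is shown for the members on which the account below turns, namely *Six6* and *Otp*, which differed most between the groups among members with at least 30 tags in a sample, *Six3*, a paralog of *Six6* that differed less, and *Nkx2-1*, the member whose level varied least. Each run gives the 250 bases before the RefSeq start (GRCm38.p6), from 5′ to 3′ on the strand of the gene. Capitals mark CCAAT on either strand, which was chosen after the sequences were seen. The windows are chr12:72939632-72939881 (plus strand) for *Six6*, chr13:94875386-94875635 (plus strand) for *Otp*, chr17:85620584-85620833 (plus strand) for *Six3* and chr12:56536909-56537158 (minus strand) for *Nkx2-1*. RefSeq and GENCODE starts differ for some genes. The window of *Six3* thus lies within the GENCODE span given above, and that of *Otp* runs past its GENCODE start.
Six6: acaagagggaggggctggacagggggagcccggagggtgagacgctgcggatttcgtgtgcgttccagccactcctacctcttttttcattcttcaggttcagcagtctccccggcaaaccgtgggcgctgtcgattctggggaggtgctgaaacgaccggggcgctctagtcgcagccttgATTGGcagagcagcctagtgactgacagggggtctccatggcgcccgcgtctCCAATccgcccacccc
Otp: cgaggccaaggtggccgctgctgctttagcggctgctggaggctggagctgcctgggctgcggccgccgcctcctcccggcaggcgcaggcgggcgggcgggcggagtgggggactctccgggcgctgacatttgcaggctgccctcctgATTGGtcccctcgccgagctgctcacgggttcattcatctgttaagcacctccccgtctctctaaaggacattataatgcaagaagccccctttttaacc
Six3: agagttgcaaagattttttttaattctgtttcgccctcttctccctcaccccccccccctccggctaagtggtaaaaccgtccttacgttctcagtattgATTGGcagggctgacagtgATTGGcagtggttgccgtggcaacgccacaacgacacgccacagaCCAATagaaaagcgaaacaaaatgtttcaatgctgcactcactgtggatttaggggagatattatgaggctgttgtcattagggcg
Nkx2-1: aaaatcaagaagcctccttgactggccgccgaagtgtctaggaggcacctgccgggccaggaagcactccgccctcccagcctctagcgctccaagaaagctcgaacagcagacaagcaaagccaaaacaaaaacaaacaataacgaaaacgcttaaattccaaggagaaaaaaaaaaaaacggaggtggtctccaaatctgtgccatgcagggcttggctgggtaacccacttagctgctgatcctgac
CCAAT occurred 2 times before *Six6*, 1 time before *Otp* and 3 times before *Six3*, and it was not found before *Nkx2-1*. It was also not found before *Sim1* and *Nkx2-4*, so it was in 3 of the 6 members read. The same letters occurred in 33.8% of the 32851 promoters of the table. The homeodomain core TAATTA was found in none of these 6 members and in 4.84% of all promoters. TAATCC and CAAGTG, the cores of bicoid-type and NK2-type homeodomains, were likewise in none of the 6 and in 6.25% and 11.6% of all promoters, on both strands. A match to these letters is a description of the sequence and not a binding site. The GC content of the 4 sequences ranged from 48.8% for *Six3* to 65.2% for *Otp*, with a median of 52.4% over all promoters.

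Between 37942046 and 42994832 tags were assigned to genes per sample. *Qk* itself was at an RPKM of 21.1 and 21.7 in control and 32.5 and 34.2 in *Qk* cKO (log2 fold change 0.65, FDR 2.50e-05 by edgeR). The loxP sites flank exon 2 only, so the level of the whole gene does not check the deletion. Genes of the dorsal cortex were found in every sample. *Emx1*, which marks the dorsal cortex, was at an RPKM of 26.9 and 21.8 in control and 21.4 and 21.2 in *Qk* cKO. The summed RPKM of the 14 dorsal cortical genes examined lay between 488.3 and 544.2. The paper calls the 2 samples of a group independent, and the labels do not describe the dissection of each cortex.

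The 9 genes were expressed at low to moderate levels and were lower on average in *Qk* cKO. Their summed RPKM was 16.8 in control 1, 21.6 in control 2, 14.6 in *Qk* cKO 1 and 12.5 in *Qk* cKO 2. Control 2 had the highest RPKM of the 4 samples in 9 of the 9 genes, and *Qk* cKO 2 alone the lowest in 6. Over all 18834 genes with at least 1 tag, 29.4% were highest in control 2 and 23.3% were lowest in *Qk* cKO 2. Both *Qk* cKO samples lay below both controls in 7 of the 9 genes, as they did in 20.6% of all genes. Called lower in *Qk* cKO (edgeR's quasi-likelihood test, p below 0.01 and FDR below 0.1) were 2 of the 9, *Six6* and *Otp*, and none was called higher. Over all genes tested, 0.377% were called lower and 0.207% higher. Because differences among these samples chose the genes, nothing is read from these counts. The median log2 fold change of the 9 was -0.75, or -0.72 with *Nkx2-4*, which had no tag in *Qk* cKO, set at its bound, a fold of 1.41 against 3 tags over the group, and it was -0.0025 over all genes. In bulk tissue, fewer cells of a type and less RNA per cell cannot be told apart.

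**Figure D1:**
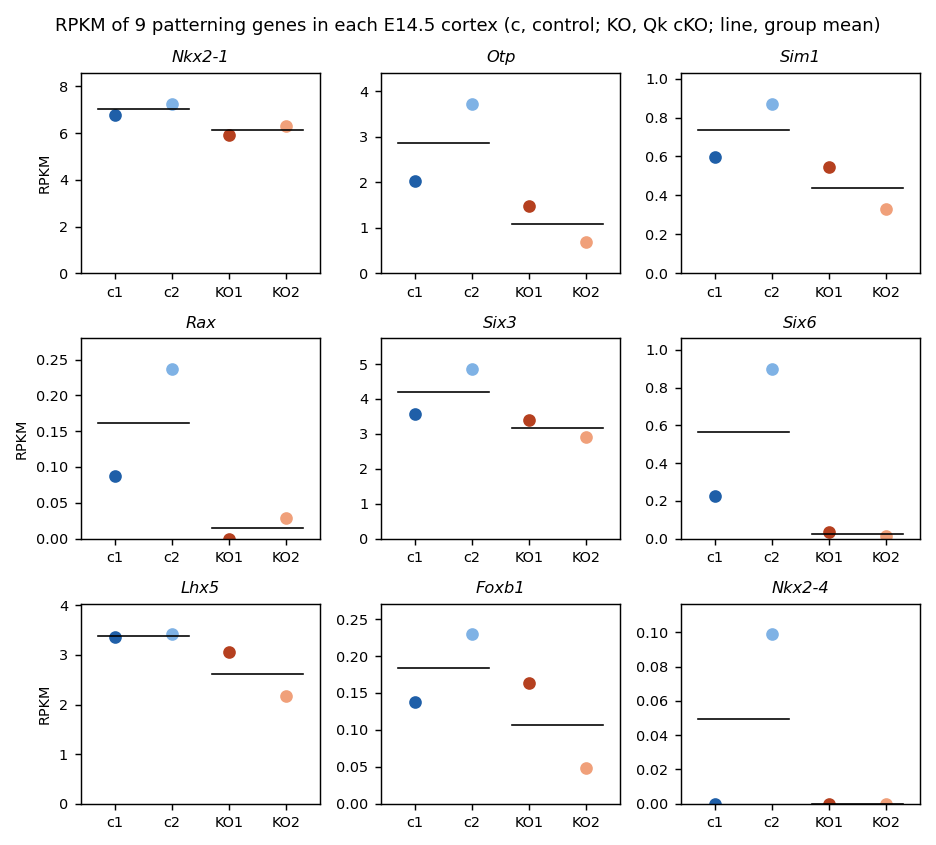
RPKM of each of the 9 patterning genes (vertical axis, from 0, own scale in each panel) in control 1 and 2 (c1, c2, blue) and *Qk* cKO 1 and 2 (KO1, KO2, red and orange); points are single samples and lines group means. Control 2 is the highest point in every panel, and *Six6* falls from 0.899 there to 0.0123 in *Qk* cKO 2.

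*Six6* differed most between the groups among the members with tags in every sample. Its RPKM was 0.226 in control 1, 0.899 in control 2, 0.0353 in *Qk* cKO 1 and 0.0123 in *Qk* cKO 2. These values rest on 37, 135, 6 and 2 tags, with exact 95% Poisson intervals of 26.1 to 51, 113 to 160, 2.2 to 13.1 and 0.242 to 7.22 tags, which cover counting error only. Both controls were far above both *Qk* cKO samples, and the groups did not overlap. The controls nevertheless differed from each other by 3.98-fold. The mean was 0.563 ± 0.476 (SD, n = 2) in control and 0.0238 ± 0.0162 (SD, n = 2) in *Qk* cKO, and the log2 fold change was -4.48 (standard error 0.65).

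*Rax*, the other eye field gene with a narrow forebrain domain, was barely detected. It had 6 tags in control 1, 15 in control 2, 0 in *Qk* cKO 1 and 2 in *Qk* cKO 2, or an RPKM of 0.0868, 0.237, 0 and 0.0292. A count of 0 in *Qk* cKO 1 allows an RPKM of up to 0.0418 (3 tags). Controls were above *Qk* cKO without overlap. The tags summed over each group, scaled by depth, gave a control level 11.1 times that of *Qk* cKO, with an exact 95% interval from counting of 2.72 to 97.8. That interval leaves out the spread between embryos, and the controls were 2.73-fold apart. The log2 fold change was -3.32 (standard error 1.35), and *Rax* was not called (FDR 0.444 by edgeR's quasi-likelihood test).

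*Six3*, which shares the anterior neural plate and eye field with *Six6* but is also expressed in the ventral telencephalon, was more abundant and differed little. Its RPKM was 3.56 in control 1, 4.86 in control 2, 3.40 in *Qk* cKO 1 and 2.91 in *Qk* cKO 2. The groups did not overlap, but control 1 was only 1.05-fold above *Qk* cKO 1. The log2 fold change was -0.40 (standard error 0.14).

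*Nkx2-1* was the most abundant of the 9 per length and the one with the smallest range. It was at an RPKM of 6.79 in control 1, 7.26 in control 2, 5.94 in *Qk* cKO 1 and 6.31 in *Qk* cKO 2. The groups did not overlap, and the highest sample was 1.22-fold above the lowest. The mean was 7.02 ± 0.330 (SD, n = 2) in control and 6.13 ± 0.263 (SD, n = 2) in *Qk* cKO, and the log2 fold change was -0.18 (standard error 0.11). Its paralog *Nkx2-4* had 4 tags in control 2 (exact 95% Poisson interval 1.09 to 10.2 tags) and none in the other 3 samples, where a count of 0 allows an RPKM of up to 0.0655 to 0.0686 against the 0.0990 of control 2. A difference between the groups was not detectable for *Nkx2-4* at this depth.

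*Otp* and *Sim1*, which act together in neuroendocrine neurons, followed the same order of samples. *Otp* was at an RPKM of 2.02 in control 1, 3.72 in control 2, 1.48 in *Qk* cKO 1 and 0.680 in *Qk* cKO 2. *Sim1* was at 0.597 in control 1, 0.871 in control 2, 0.547 in *Qk* cKO 1 and 0.331 in *Qk* cKO 2. In both genes control 2 was highest, *Qk* cKO 2 lowest, and control 1 and *Qk* cKO 1 were close to each other, 1.37-fold apart for *Otp* and 1.09-fold for *Sim1*. The log2 fold change was -1.39 (standard error 0.33) for *Otp* and -0.72 (standard error 0.23) for *Sim1*.

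*Foxb1* was weakly expressed and its groups overlapped. It was at an RPKM of 0.138 in control 1, 0.230 in control 2, 0.164 in *Qk* cKO 1 and 0.0490 in *Qk* cKO 2, from 17, 26, 21 and 6 tags. *Qk* cKO 1 thus lay above control 1, and the *Qk* cKO samples differed from each other by 3.34-fold. The log2 fold change was -0.75 (standard error 0.65). *Lhx5* was at an RPKM of 3.36 in control 1, 3.42 in control 2, 3.06 in *Qk* cKO 1 and 2.17 in *Qk* cKO 2. Here the controls were 1.02-fold apart and only *Qk* cKO 2 was clearly lower, and the log2 fold change was -0.36 (standard error 0.16).

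The 2 samples of a group also differed from each other. Relative to control 1, control 2 was higher in all 9 genes, from 1.02-fold for *Lhx5* to 3.98-fold for *Six6* among the 8 with tags in both. *Qk* cKO 2 was below *Qk* cKO 1 in 6 genes, among them *Foxb1* (3.34-fold), *Six6* (2.87-fold) and *Otp* (2.17-fold), and above it in *Nkx2-1* and *Rax*. Over the 7 genes with tags in every sample, the median log2 ratio of control 2 to control 1 was 0.54 and that of *Qk* cKO 2 to *Qk* cKO 1 was -0.72, against 0.0069 and 0.022 over the 16517 genes with tags in every sample. Between control 1 and *Qk* cKO 1, the level differed by at most 1.14-fold in either sense in *Nkx2-1*, *Sim1*, *Six3* and *Lhx5*, whereas *Six6* was 6.40-fold higher in control 1. Between control 2 and *Qk* cKO 2 the same ratio was 5.48 for *Otp*, 2.63 for *Sim1* and 73.1 for *Six6*. These pairs only share a replicate number, which does not tie the embryos to each other.

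**Figure D2:**
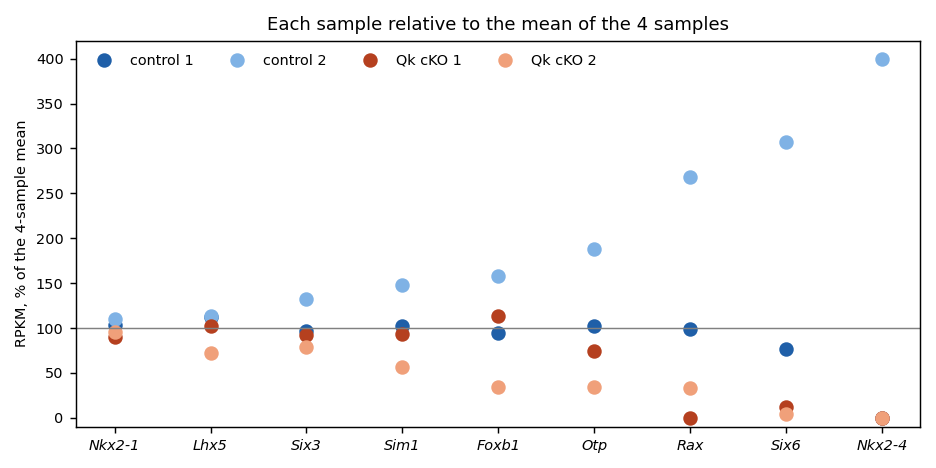
RPKM of each gene in each sample as a percentage of its mean over the 4 samples (vertical axis; grey line, 100%), genes ordered by control 2; points are single samples. Control 2 lies at 110% for *Nkx2-1* and at 307% for *Six6*, and *Qk* cKO 2 reaches 4.20% for *Six6*.

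Leaving out a sample changed the size of the differences but not their sign. In the 7 of the 9 genes whose groups did not overlap, omission of a sample cannot reverse the sign, so nothing is read from it. The same holds for *Nkx2-4*, which had tags in control 2 only and no fold change without that sample. The log2 fold change of *Six6* was -3.19 without control 2, -5.17 without control 1, -5.42 without *Qk* cKO 1 and -3.93 without *Qk* cKO 2. That of *Otp* was -0.89 without control 2 and -0.93 without *Qk* cKO 2, against -2.07 without *Qk* cKO 1 and -1.76 without control 1. The values without control 2 or *Qk* cKO 2 were thus nearer to 0 than those without control 1 or *Qk* cKO 1 in both genes. This follows from control 2 being the highest sample and *Qk* cKO 2 the lowest in both. Without control 2 no gene of the 18597 tested was called in either direction, *Qk* included (edgeR's quasi-likelihood test, 966 genes at an unadjusted p below 0.05), and without *Qk* cKO 1 there were 428 calls over all genes. The median over the members ranged from -1.88 without *Qk* cKO 1 to -0.39 without control 2, the latter over 8 members. For *Lhx5* the log2 fold change was -0.12 without *Qk* cKO 2 and between -0.64 and -0.35 without any other single sample.

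**Figure D3:**
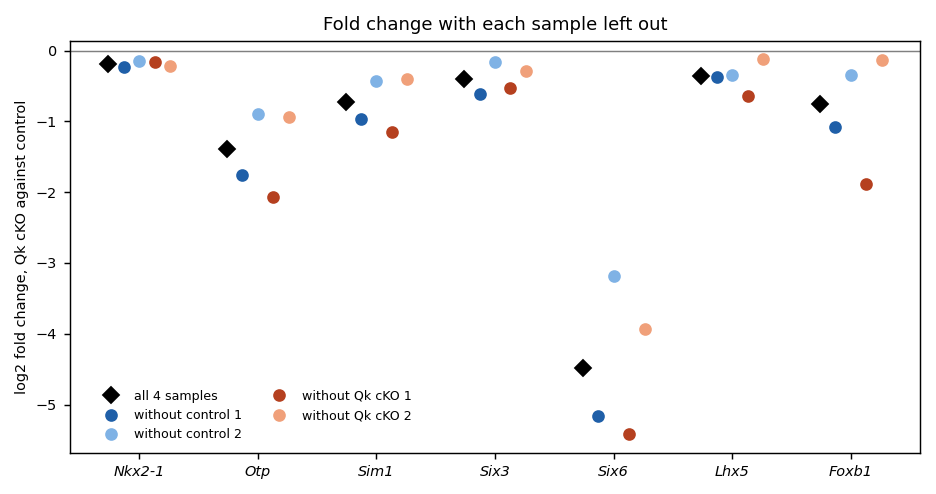
Log2 fold change of *Qk* cKO against control (vertical axis; grey line, 0) for the 7 genes with tags in every sample, with all 4 samples (black diamonds) and with each sample left out (circles, coloured by the sample left out). Every value is below 0, and *Otp* moves between -2.07 and -0.89.

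Other genes of the hypothalamus were examined through a list of 20 regulators apart from the 9, written with the calls of the study known. Of the 20, 3 were called lower in *Qk* cKO and 17 were not called (edgeR's quasi-likelihood test). None was called higher, and at an unadjusted p below 0.05 there were 11 lower and 0 higher, with a median log2 fold change of -0.83. Over all genes tested, 4.43% were lower and 4.33% higher at that unadjusted p. Control 2 was highest in 14 of the 20 (70%), and both *Qk* cKO samples lay below both controls in 10 (50%), against 29.4% and 20.6% of all genes. This list and the lists below were written with results of these samples known, so their counts are a description and not evidence. *Nr5a1*, which defines the ventromedial nucleus, was at an RPKM of 0.205 and 0.603 in control 1 and 2 and 0.0110 and 0.0115 in *Qk* cKO 1 and 2, and its log2 fold change was -5.06 (FDR 9.00e-04 by edgeR, standard error 0.68). Its groups stood apart as in *Six6*, but its values rest on 36 and 97 tags in control 1 and 2 and on 2 tags in each *Qk* cKO sample. Of the 20, 6 were called without *Qk* cKO 1, 1 without control 1, 1 without *Qk* cKO 2 and 0 without control 2.

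*Nkx2-2*, a homeobox gene of the ventral neural tube and hypothalamus, was at 0.266 and 0.786 in control and 0.105 and 0.0398 in *Qk* cKO (log2 fold change -2.81, standard error 0.60, FDR 0.0547 by edgeR). *Sox14*, which is found in subsets of hypothalamic and diencephalic neurons, was at 0.105 and 0.893 in control and 0.0451 and 0.0118 in *Qk* cKO (log2 fold change -4.02, standard error 0.92, FDR 0.0775 by edgeR). In both genes control 2 was far above the 3 other samples. In the order control 1, control 2, *Qk* cKO 1 and *Qk* cKO 2, *Nkx2-2* rests on 27, 73, 11 and 4 tags and *Sox14* on 9, 70, 4 and 1. Neither was called when control 1, control 2 or *Qk* cKO 2 was left out, and the log2 fold change of *Sox14* was -1.81 without control 2. The log2 fold change of *Nkx2-2* was -1.85 without control 2. That of *Nr5a1* was -4.10 without control 2 and between -5.64 and -5.04 without any other sample. The most abundant genes of the list were not called. *Arnt2*, the partner of *Sim1*, was at 54.9 and 61.7 in control and 57.7 and 54.1 in *Qk* cKO, and *Vax1*, a ventral forebrain homeobox gene, was at 6.24 and 6.45 in control and 5.35 and 4.45 in *Qk* cKO.

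Among peptides and transmitter enzymes of hypothalamic neurons, *Pomc* was lower in *Qk* cKO. Of 24 such genes, in a list also written with the calls of the study known, 1 was called lower and 23 were not called (edgeR's quasi-likelihood test). At an unadjusted p below 0.05 there were 3 lower and 0 higher, with a median log2 fold change of -0.18 and control 2 highest in 9 (37.5%). The called gene was *Pomc*, the melanocortin precursor of arcuate neurons, at an RPKM of 1.20 and 3.32 in control and 0.439 and 0.435 in *Qk* cKO (log2 fold change -2.34, standard error 0.44, FDR 0.0227 by edgeR). Its controls lay above both *Qk* cKO samples, which were nearly equal. The log2 fold change of *Pomc* was -1.44 without control 2, the only sample whose loss removed the call. Without *Qk* cKO 1, 2 genes of the list were called. *Sst* and *Npy*, which cortical and subpallial neurons also express, were the most abundant of the list and were not called, with *Sst* at 55.1 and 49.4 in control and 47.9 and 56.7 in *Qk* cKO and *Npy* at 25.1 and 20.2 in control and 26.8 and 23.8 in *Qk* cKO.

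Among genes of the thalamus, prethalamus and pretectum, most were highest in control 2 and lowest in *Qk* cKO 2. Of 22 such genes, in a list also written with the calls of the study known, 1 was called lower and 21 were not called (edgeR's quasi-likelihood test). At an unadjusted p below 0.05 there were 8 lower and 0 higher, with a median log2 fold change of -0.85. Control 2 was highest in 16 (72.7%) and *Qk* cKO 2 lowest in 15. Their summed RPKM was 62.6 in control 1, 81.4 in control 2, 62.3 in *Qk* cKO 1 and 39.5 in *Qk* cKO 2, so that control 1 and *Qk* cKO 1 were nearly equal. The called gene was *Lhx1*, a LIM homeobox gene, at an RPKM of 2.29 and 3.08 in control and 1.63 and 1.12 in *Qk* cKO (log2 fold change -0.94, standard error 0.19, FDR 0.0437 by edgeR). *Lhx1* was called without *Qk* cKO 1 and lost its call without any other sample, with log2 fold changes of -1.14 without control 1, -0.72 without control 2 and -0.69 without *Qk* cKO 2. Without *Qk* cKO 1, 10 of the 22 were called, and without any other sample 0.

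*Tcf7l2*, a Wnt effector that marks thalamic neurons, was also highest in control 2 and lowest in *Qk* cKO 2. It was at an RPKM of 6.58 in control 1, 16.7 in control 2, 6.99 in *Qk* cKO 1 and 1.56 in *Qk* cKO 2. The groups overlapped, as *Qk* cKO 1 lay above control 1, and *Tcf7l2* was not called (FDR 0.179 by edgeR). *Gbx2* and *Shox2*, a pair of thalamic homeobox genes named after their values were seen, were likewise highest in control 2 and lowest in *Qk* cKO 2. *Gbx2* was at 2.62 and 4.29 in control and 2.82 and 0.733 in *Qk* cKO, and *Shox2* was at 1.19 and 2.49 in control and 1.26 and 0.0537 in *Qk* cKO. *Calb2*, the most abundant gene of the list, is also found in cortical neurons and was at 31.3 and 27.7 in control and 30.8 and 22.6 in *Qk* cKO. The summed level of the thalamic list, like that of the 9 patterning genes, was highest in control 2 and lowest in *Qk* cKO 2, and the part of this in the result was not tested.

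**Figure D4:**
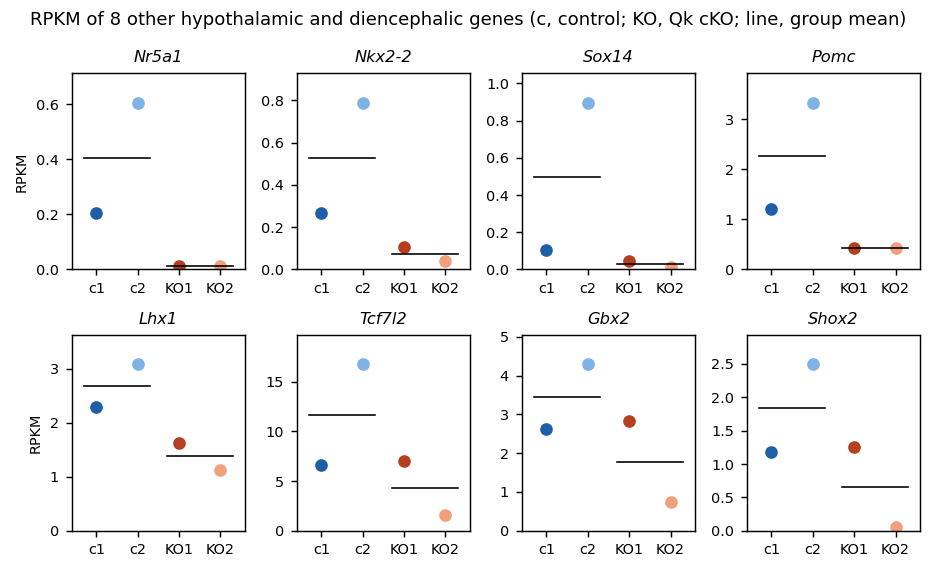
RPKM (vertical axis, from 0, own scale in each panel) of 8 other genes of hypothalamus and diencephalon in control 1 and 2 (c1, c2) and *Qk* cKO 1 and 2 (KO1, KO2); points are single samples and lines group means. In *Nr5a1* and *Pomc* both *Qk* cKO samples lie well below both controls, whereas in *Tcf7l2*, *Gbx2* and *Shox2* control 1 and *Qk* cKO 1 are close and *Qk* cKO 2 is lowest. *Gbx2* and *Shox2* were chosen after their values were seen.

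*Nkx2-1* and *Six3* are also expressed in the subpallium. None of 16 subpallial genes was called in edgeR's quasi-likelihood test, and at an unadjusted p below 0.05 there were 1 lower and 4 higher, with a median log2 fold change of 0.053 and control 2 highest in 4 (25%). *Dlx1*, the most abundant, was at an RPKM of 51.3 and 53.3 in control and 55.4 and 55.4 in *Qk* cKO, and *Dlx2* was at 24.9 and 27.3 in control and 23.7 and 25.0 in *Qk* cKO. *Lhx6*, which acts downstream of *Nkx2-1* in interneurons and was named after its values were seen, was at 18.2 and 18.1 in control and 19.6 and 20.2 in *Qk* cKO. The 1 gene lower at that unadjusted p was *Sp9*, at 4.14 and 3.94 in control and 3.04 and 2.61 in *Qk* cKO. Its groups did not overlap, and its log2 fold change was -0.50 (standard error 0.13). Without *Qk* cKO 1, 1 gene of the list was called.

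Eye and pituitary genes, which *Six6*, *Six3* and *Rax* also serve, were mostly at the limit of detection. None of the 17 eye genes tested was called in edgeR's quasi-likelihood test (2 lower and 1 higher at an unadjusted p below 0.05), with a median log2 fold change of -0.095 and control 2 highest in 8. *Dct*, a melanin enzyme of pigment cells and the most abundant of the list, was at an RPKM of 8.23 and 6.15 in control and 5.93 and 6.72 in *Qk* cKO. *Mitf*, a regulator of pigment cells, was at 0.461 and 0.533 in control and 0.402 and 0.781 in *Qk* cKO. Of 14 pituitary genes, 4 had no tag in any sample and none of the 10 tested was called (1 lower and 1 higher at an unadjusted p below 0.05). Their median log2 fold change was 0.35, or 0.13 with genes at 0 in a group set at their bound. The most abundant was *Lhb*, a gonadotropin subunit, at 1.33 and 0.875 in control and 0.579 and 1.41 in *Qk* cKO. The summed RPKM of the list lay between 0.809 and 1.99.

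No gene was called among those of the dorsal cortex (14), the cortical hem and choroid plexus (11), the midbrain and hindbrain (11 tested), the meninges and mesenchyme (10) or blood, vessels and microglia (10 tested) in edgeR's quasi-likelihood test. At an unadjusted p below 0.05 in that test there were 2, 1, 0, 0 and 0 genes lower and 1, 0, 0, 4 and 1 higher. Over all genes these shares were 4.43% and 4.33%. The 4 meningeal genes at that p were all higher on average in *Qk* cKO, but in none of the 10 did both *Qk* cKO samples lie above both controls. Neither DESeq2 nor edgeR's exact test called any gene of these lists or of the subpallial, eye and pituitary genes. The median log2 fold changes were 0.0045, 0.00049, 1.77, 0.18 and 0.061, the third of these from a list with 5 genes at 0 in a group. Control 2 was highest in 1, 1, 2, 1 and 2 of the genes.

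In the dorsal cortical list, *Neurod6*, a gene of projection neurons, was at an RPKM of 166.3 and 138.1 in control and 143.1 and 166.7 in *Qk* cKO. *Lhx2*, a selector gene of the cortex, was at 57.3 and 52.8 in control and 50.5 and 48.4 in *Qk* cKO. These levels were far above those of any of the 9 patterning genes. *Hbb-y*, an embryonic globin, was at 241.0 and 207.8 in control and 324.3 and 228.6 in *Qk* cKO, and the endothelial cadherin *Cdh5* was at 15.0 and 13.8 in control and 13.5 and 17.3 in *Qk* cKO. Neither followed the order of samples seen in *Otp* and *Sim1*. Without *Qk* cKO 2, 1 gene of blood and vessels was called.

 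Genes of the hem and choroid plexus and of the meninges were mostly highest in *Qk* cKO 2, in 8 of 11 and 9 of 10. *Ttr*, the transport protein of the choroid plexus, was at an RPKM of 757.7 and 608.7 in control and 560.7 and 779.3 in *Qk* cKO, and *Otx2* was at 8.54 and 7.69 in control and 6.82 and 8.88 in *Qk* cKO. *Col3a1*, a fibrillar collagen, was at 55.4 and 49.4 in control and 54.9 and 65.3 in *Qk* cKO, and *Dcn*, a matrix proteoglycan of the meninges, was at 25.2 and 23.4 in control and 24.3 and 37.0 in *Qk* cKO. The summed RPKM of the meningeal genes was 155.0, 141.1, 140.0 and 202.4 in the order control 1, control 2, *Qk* cKO 1 and *Qk* cKO 2. Without *Qk* cKO 1, 5 of the 10 meningeal genes were called, and 1 without *Qk* cKO 2. *Qk* cKO 2, which had the lowest level of 6 of the 9 patterning genes, thus also had the highest level of meningeal genes, and the part of this in the result was not tested. Midbrain and hindbrain genes were at or near 0, with a summed RPKM of 0.649 to 0.981. *Fgf8*, a signal of the isthmus, was at 0.433 and 0.578 in control and 0.232 and 0.146 in *Qk* cKO, *Pax5* was at 0.120 and 0.262 in control and 0.462 and 0.302 in *Qk* cKO, and *Hoxa2*, *Hoxa3* and *Hoxb2* had no tag.

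**Figure D5:**
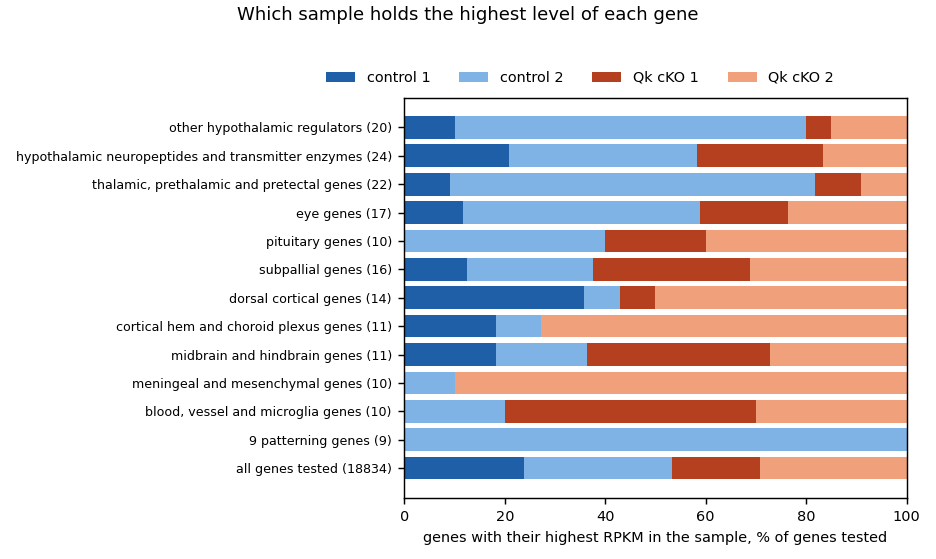
Share of the genes tested in each list (number in parentheses) that have their highest RPKM in control 1, control 2, *Qk* cKO 1 or *Qk* cKO 2 (horizontal axis, percent). Control 2 takes 100% of the 9 patterning genes, 70% of the other hypothalamic regulators and 72.7% of the thalamic list, against 29.4% of all genes tested. Members and lists were chosen with results of these samples known.

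In GENCODE M21, exons of 5 members (*Rax*, *Six3*, *Six6*, *Lhx5* and *Foxb1*) overlap exons of genes on the other strand. The library kit does not keep strand, so tags of such pairs cannot be told apart where they overlap. Of the 6 overlapping genes, 3 have values of their own. *Six3os1*, opposite *Six3*, was at an RPKM of 3.31 and 4.29 in control and 3.50 and 3.17 in *Qk* cKO. *4930447C04Rik*, opposite *Six6*, was at 0.144 and 0.368 in control and 0.133 and 0.188 in *Qk* cKO. Unlike *Six6*, it was thus not near 0 in *Qk* cKO. *B230323A14Rik*, opposite *Foxb1*, had 3 and 9 tags in control and none in *Qk* cKO.

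The genes whose pattern over the 4 samples was nearest to the mean pattern of the 9 were sought among 15642 others with an RPKM of at least 0.2 in a sample. Nearness was the root mean square difference of log2(RPKM + 0.1), centred for each gene. The mean pattern was 0.083 in control 1, 0.73 in control 2, -0.24 in *Qk* cKO 1 and -0.57 in *Qk* cKO 2. The 10 nearest genes were *Ttll8*, *Hepacam*, *A330041J22Rik*, *Calcr*, *Sncg*, *Mir199a-1*, *Pou2f2*, *Scand1*, *Ccdc160* and *Pdlim3*, with differences from 0.049 to 0.110 on this scale. None of the 10 was in a list above, and none was called by edgeR. *Mir199a-1* rests on only 4, 5, 3 and 2 tags in control 1, control 2, *Qk* cKO 1 and *Qk* cKO 2. The members themselves were farther from their own mean pattern, from 0.140 for *Sim1* to 0.779 for *Six6*. As the 10 were selected as the nearest of 15642 genes, that comparison was nearly fixed in advance. The distances of the 9 do differ, so their pattern was not of a single size. Only 2 of the 10 were also among the nearest with a pseudocount of 1.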

How the data were processed

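PolyA-selected RNA of 4 cortices was sequenced with a kit that does not keep strand. According to the methods, the authors mapped paired reads to mm10 (OLego) and used Quantas for quantification. The deposited values are tags, an estimated count per gene that need not be whole, and RPKM. Tags were fractional for 8.41% to 12.1% of genes, depending on the sample. One passage of the methods names 3 replicates, whereas the labels give 2. Total tags were 37942046 to 42994832 per sample.

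Tags were rounded and compared in edgeR 4.0.16 (R 4.3.3; quasi-likelihood test) after TMM scaling over genes with at least 1 tag, without covariates. A call needed p below 0.01 together with an FDR (Benjamini-Hochberg) below 0.1. Alternatives were DESeq2 1.42.0 without independent filtering, edgeR's exact test, upper-quartile scaling, filterByExpr, a replicate block, and omission of each sample in turn, which assumes that a lone sample varies like the other group. P-values of the quasi-likelihood test set the difference between groups against the spread of 2 samples per group, moderated over all genes tested. The quasi-likelihood, exact, DESeq2 and block fits were tested on simulated counts.

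Members and lists were chosen with earlier results of these data known. Named were the 9 members, *Qk*, in each of 11 lists up to 4 called genes per direction and the 2 most abundant genes, and the 10 genes nearest in pattern. *Emx1* was added as a tissue marker, and *Gbx2*, *Shox2*, *Helt*, *Lhx6*, *Sp9* and the genes without a tag after their values were seen. Some genes of the lists are not reported here by name. *Hbb-bt* of the blood list was not matched by name. The splicing files were not used here.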

Additional observations from a re-analysis of the deposited data

How the results depend on the processing

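All 9 members had tags, 7 were kept by filterByExpr and 4 had a mean RPKM of at least 1 in both groups. No fold change of a member changed sign under any alternative. With a sample left out, this was fixed in advance for the 7 members whose groups did not overlap. It was also fixed for *Nkx2-4*, which had tags in control 2 only and no fold change without that sample. Over all genes, 71 were called lower and 39 higher. DESeq2 called 47 and 20, edgeR's exact test 41 and 16, and the fit after filterByExpr 9 and 2. With each sample left out in turn the calls ranged from 0 to 240 lower and from 0 to 188 higher. Calls of members are no evidence, since differences among these samples chose them. Of the members, 1 was called by DESeq2 and 1 by the exact test (*Six6*), none after filterByExpr (4 of 7 at an unadjusted p below 0.05, as 9.13% of all genes in that fit), and from 0 without control 2 to 5 without *Qk* cKO 1. The median log2 fold change of the members ranged from -1.88 to -0.39 with a sample left out, over 8 members without control 2. Of the other hypothalamic regulators 1 remained called after filterByExpr, and 0 to 6 with a sample left out. After filterByExpr 0 peptide and 0 thalamic genes were called, and DESeq2 called 0 thalamic genes. With a sample left out there were 0 to 2 calls among peptides, 0 to 10 among thalamic, 0 to 1 among subpallial, 0 to 5 among meningeal and 0 to 1 among blood and vessel genes. With the replicate number as a replicate block, 119 genes were called lower and 73 higher, 4 of them thalamic and 1 of blood and vessels, and the members called were the same number, 2. The numbers are not known to pair embryos, and their deviations from the group means correlated between samples of a number at 0.303 (12928 genes) and at -0.0808 (12442 autosomal genes). Of the 10 genes nearest in pattern, 5 were shared without the RPKM minimum and 2 with a pseudocount of 1. *Rax* and *Nkx2-4* rest on at most 15 tags per sample, so their fold changes have a large counting error. The cause of these changes was not tested.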
